A study of Mus musculus with 8 samples.

Results

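Expression of the nuclear receptors CAR (Nr1i3) and PXR (Nr1i2), of their shared partner RXRα (Rxra), of the electron donor POR (Por) and of the Cyp2a and Cyp2b genes was followed in mouse liver. The 10 genes were chosen by name for this pathway and not by their values, although earlier results of these data were known. These are Nr1i2, Nr1i3, Rxra, Por, Cyp2b9, Cyp2b10, Cyp2b13, Cyp2a4, Cyp2a5 and Cyp2a12, and the estimated counts of their transcripts were added per gene. They are 10 of 35975 genes in the data, and 8 of them were among the 12883 genes that could be tested. Livers came from C57BL/6 mice (C57BL/6J in the study's methods) whose portal vein had been fitted with a cannula fed by an osmotic pump placed under the skin. For 2 weeks the pump delivered either normal saline (4 mice) or 4-hydroxyphenylacetic acid, a gut microbial metabolite abbreviated 4-HPAA, dissolved at 55 mM in normal saline (4 mice), at 0.25 µL per hour. Both groups shared the surgery, the cannula and single housing afterwards, so the saline group is a control for the procedure and not an untreated liver. The mice of the study were 8 to 10 weeks old and of both sexes, and the labels do not give the sex of these 8.

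CAR and PXR sense drugs, bile acids and steroids in the hepatocyte. Each binds DNA together with RXRα and turns on cytochrome P450 genes, of which Cyp2b10 is the classic CAR target and Cyp3a11 the classic PXR target in mouse liver. The P450 enzymes oxidise drugs and steroids with electrons handed over by POR, and several Cyp2a and Cyp2b genes, Cyp2a4, Cyp2b9 and Cyp2b13 among them, are expressed more in female than in male liver.

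Each library held between 29559978 and 30673398 estimated counts, so the spread between mice rather than depth limited the precision of all but the lowest genes. Defining hepatocyte genes summed to between 107642 and 143977 CPM (counts scaled to a library of 1000000), and 6 genes of pancreas and intestine to between 55.8 and 76.1 CPM. Of these 6, Fabp2 measured 43.6 to 66.2 CPM, Cela1 7.83 to 14.2 CPM and Vil1 0.0647 to 0.353 CPM, Cpa1 was above 0 in 1 library, and Prss2 and Pnlip were at 0 in every library. The 4 Y-linked genes examined (Ddx3y, Eif2s3y, Uty and Kdm5d) were expressed in all 8 livers, Ddx3y between 72.1 and 89.5 CPM. By these genes all 8 livers read as male, although the labels do not give sex. Globin and other erythroid genes summed to 2560 CPM in saline liver 2 and 734 CPM in 4-HPAA liver 4, against 152 to 376 CPM in the remaining livers. The samples are labelled as numbered replicates, and the p-values given here measure the spread between these samples.

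None of the 8 tested genes passed the test for a difference between 4-HPAA and normal saline. Intervals were narrow for the receptors, Por, Cyp2a5 and Cyp2a12 but wide for Cyp2a4 and Cyp2b10. By edgeR's quasi-likelihood test, 0 of the 8 tested genes passed an adjusted p of 0.05, as did 0 of all 12883 genes (0%). At an unadjusted p below 0.05, edgeR called 0 of the 8 against 225 of all genes (1.75%), and the values of the groups overlapped for all 8, whereas 154 of all genes (1.2%) had groups that did not overlap. DESeq2, run on the same counts, called 2 genes (Zfp36l2 and Ggnbp1, named after their values were seen) and none of these 8. Of the 8 tested genes 3 were higher and 5 lower with 4-HPAA, with a median log2 fold change of -0.01 against 0.00 over all genes, 50.4% of which were above 0. Because whole liver was sequenced, fewer cells of a type and less RNA per cell cannot be told apart.

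**Figure D1:**
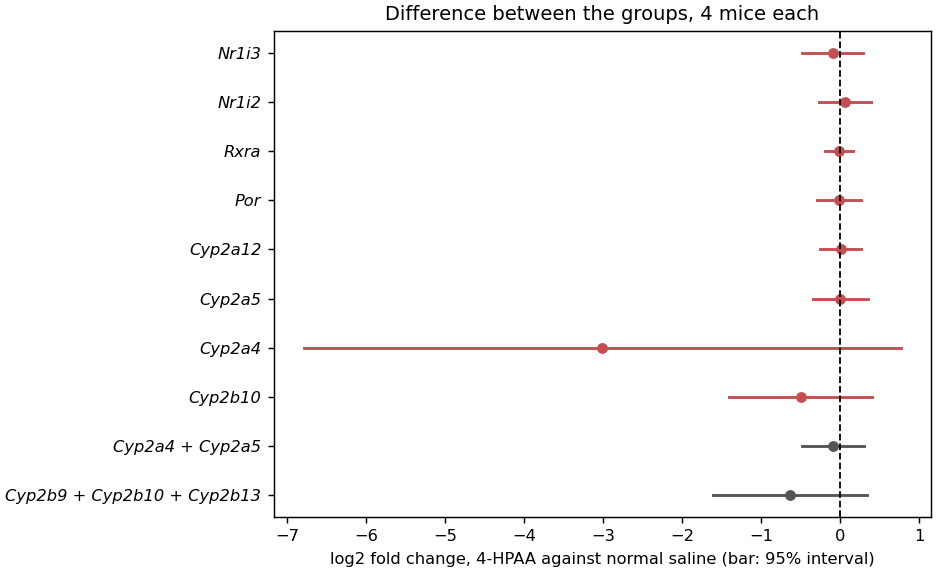
Log2 fold change (4-HPAA against normal saline, x axis) of the 8 tested genes and of 2 sums of related genes (y axis). Points are edgeR estimates and bars their 95% intervals from 4 mice per group, and every bar crosses 0, the widest being that of Cyp2a4, from -6.79 to 0.77.

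Nr1i3 (ENSMUSG00000005677, chr1:171213970-171220701, plus strand, GRCm38) encodes CAR. It measured 385, 360, 394 and 358 CPM in saline livers 1 to 4 and 448, 382, 345 and 226 CPM in 4-HPAA livers 1 to 4. The 4-HPAA group held both the highest and the lowest liver, and the saline group lay between them. Its log2 fold change was -0.10 ± 0.17 (SE, n = 4 per group, 95% interval -0.49 to 0.29, edgeR adjusted p = 1.00). Liver 4 of the 4-HPAA group set the sign, since without it the log2 fold change was 0.06.

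Nr1i3 was also the receptor gene whose isoforms were least certain. Of 8 annotated transcripts, Nr1i3-208, a long form with a short coding length of 663 bases, took between 42.9% and 47.2% of the gene's counts and the retained-intron form Nr1i3-207 took 31.7% on average. The other coding forms Nr1i3-201, Nr1i3-202 and Nr1i3-203 took 2.37%, 2.89% and 1.24%. The locus lies opposite Tomm40l, which encodes a mitochondrial import protein, and 72.5% of the bases of Nr1i3-208 are opposite Tomm40l exons. The sequencing kit keeps strand, and the methods name standard parameters for the pseudo-alignment without saying separately whether strand was used, so reads of the pair may be exchanged. Tomm40l, named because of this overlap, measured 46.7, 48.7, 55.8 and 48.4 CPM in the saline livers and 49.3, 49.6, 41.5 and 31.7 CPM in the 4-HPAA livers. It too was lowest in 4-HPAA liver 4, and the part of this overlap in the Nr1i3 value was not tested.

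Nr1i2 (ENSMUSG00000022809, chr16:38248323-38294824, minus strand) encodes PXR. It measured 111, 90.2, 95.4 and 125 CPM in the saline livers and 122, 95.4, 91.1 and 133 CPM in the 4-HPAA livers. In both groups livers 1 and 4 were higher than livers 2 and 3, and the groups overlapped. Its log2 fold change was 0.06 ± 0.15 (SE, n = 4 per group, interval -0.26 to 0.39, edgeR adjusted p = 1.00).

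Rxra (ENSMUSG00000015846, chr2:27676440-27762957, plus strand) encodes the obligate partner of both receptors and had the smallest spread of the 8 tested genes. It measured 435, 462, 472 and 412 CPM with saline and 436, 468, 447 and 410 CPM with 4-HPAA. Liver 4 was the lowest of each group. With 4-HPAA it differed by a log2 fold change of -0.02 ± 0.08 (SE, n = 4 per group, interval -0.20 to 0.16, edgeR adjusted p = 1.00), and transcript Rxra-201 took 99.4% of the counts.

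Other receptors, coregulators and chaperones of the pathway were read from the same test. All 17 genes of that list were tested, 8 higher and 9 lower with a median log2 fold change of -0.03, and 0 passed an adjusted p of 0.05. Rxrg, a further RXR gene, was the only one with an unadjusted p below 0.05 by edgeR. It measured 4.39, 4.29, 3.25 and 5.32 CPM with saline and 2.97, 2.77, 3.66 and 3.29 CPM with 4-HPAA, and saline liver 3 fell inside the 4-HPAA range. Its log2 fold change was -0.44 ± 0.17 (SE, n = 4 per group, edgeR adjusted p = 1.00). Egfr, through which CAR is held inactive, ranged from 626 to 1271 CPM with saline and from 583 to 1104 CPM with 4-HPAA. Ppara, the fatty acid receptor, had the highest log2 fold change of the list, 0.14 ± 0.14 (SE).

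Por (ENSMUSG00000005514, chr5:135670033-135735326, plus strand) supplies electrons to every microsomal P450. It measured 1058, 856, 793 and 942 CPM with saline and 839, 777, 972 and 1027 CPM with 4-HPAA. The highest liver was a saline liver and the lowest a 4-HPAA liver, and the other 6 lay between them. For Por the log2 fold change was -0.01 ± 0.12 (SE, n = 4 per group, interval -0.29 to 0.26, edgeR adjusted p = 1.00). Of 13 further genes for cytochrome b5, its reductases and heme synthesis, 3 were higher, 10 lower and 0 called, with a median log2 fold change of -0.04. Alas1, the rate-limiting enzyme of heme synthesis and itself a CAR and PXR target, ranged from 741 to 1352 CPM with saline and from 740 to 1294 CPM with 4-HPAA.

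**Figure D2:**
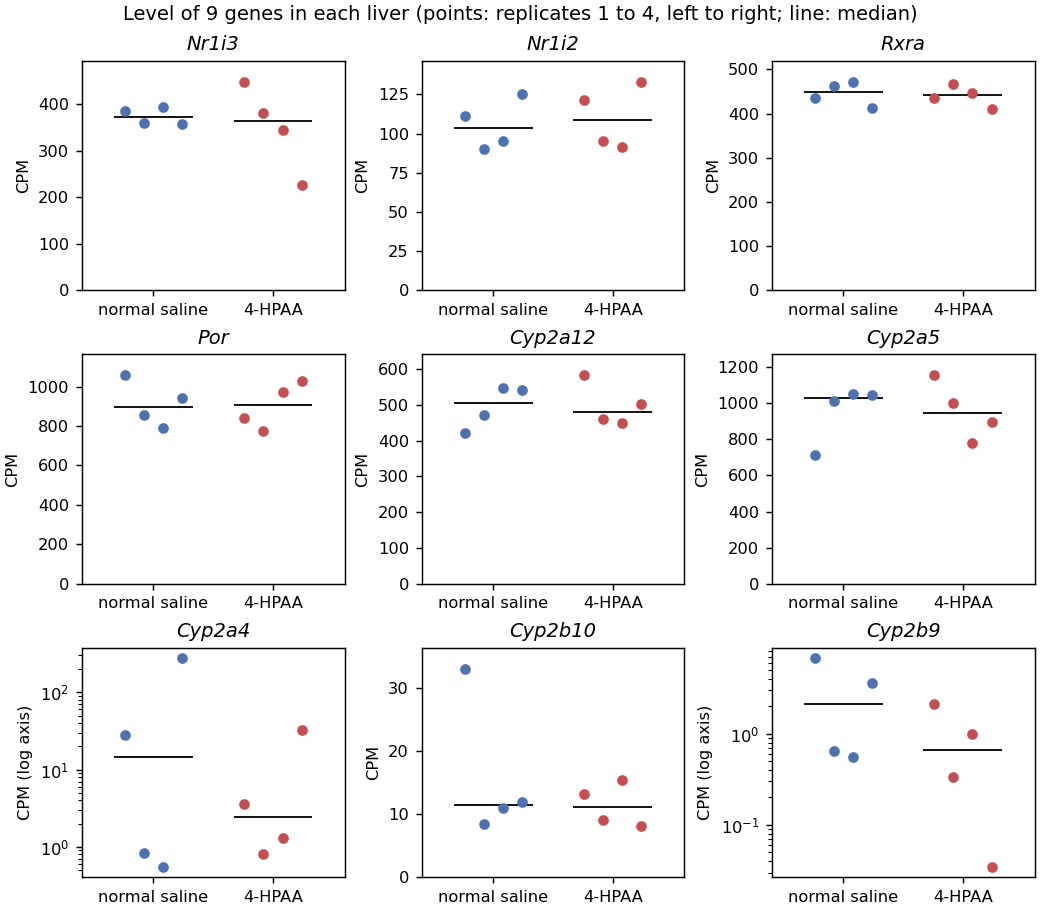
CPM (y axis, logarithmic for Cyp2a4 and Cyp2b9, from 0 for the others) of 9 genes in each liver, with replicates 1 to 4 from left to right in each group (x axis) and a line at the group median. The groups overlap in every panel, and Cyp2a4 spans 0.558 to 275 CPM while Rxra stays between 410 and 472 CPM.

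Cyp2a4 and Cyp2a5 lie in the same cluster on chromosome 7 and differed in level and spread although nearly identical in sequence. Cyp2a4, a steroid 15α-hydroxylase (ENSMUSG00000074254, chr7:26307169-26315088, plus strand), and Cyp2a5, a coumarin hydroxylase (ENSMUSG00000005547, chr7:26835305-26843548, plus strand), differ at 23 of 1482 coding bases (98.4% identical), and their longest identical coding run is 216 bases. Separation of their reads rests on these differences and on those outside the coding sequence (the main transcripts are 1738 and 2013 bases long). The following stretch, coding bases 570 to 669 of the GENCODE M21 transcripts, is shown because it holds 5 of the coding differences, in capitals.
Cyp2a4: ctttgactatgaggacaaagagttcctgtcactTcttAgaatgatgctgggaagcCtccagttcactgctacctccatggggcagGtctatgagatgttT
Cyp2a5: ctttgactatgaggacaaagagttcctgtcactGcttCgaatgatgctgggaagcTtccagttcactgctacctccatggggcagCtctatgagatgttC
Their promoters are as close. RefSeq windows on GRCm38.p6 are shown for Cyp2a4 (chr7:26306943-26307158, plus strand) and Cyp2a5 (chr7:26835089-26835304, plus strand), 216 bases each that end before the annotated starts, because 2 genes with such different levels differ here at 4 bases, in capitals.
Cyp2a4: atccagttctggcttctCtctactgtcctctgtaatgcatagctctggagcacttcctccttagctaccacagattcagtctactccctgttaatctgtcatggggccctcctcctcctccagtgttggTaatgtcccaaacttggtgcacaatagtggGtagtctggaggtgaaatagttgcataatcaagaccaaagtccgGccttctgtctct
Cyp2a5: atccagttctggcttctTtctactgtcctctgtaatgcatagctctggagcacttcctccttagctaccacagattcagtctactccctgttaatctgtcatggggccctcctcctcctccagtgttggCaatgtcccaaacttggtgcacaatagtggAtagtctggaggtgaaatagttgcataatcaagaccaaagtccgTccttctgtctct
Both hold the letters CAAAGTCC, a form of the HNF4α element, which 1.42% of 32851 promoter windows of 300 bases hold on either strand. The receptor half-site AGGTCA, held by 16.3% of windows, was found in the windows of Rxra, Cyp2b9, Cyp2b13, Cyp2a4 and Cyp2a5. In Cyp2a4 and Cyp2a5 it lay downstream of the RefSeq start. A direct repeat of half-sites (AGGTCA or AGTTCA, 4 bases apart) and the STAT element TTCNNNGAA were in none of the windows of the 10 genes, against 0.0274% and 8.30% of all windows. A repeat this rare would be absent from almost any 10 genes, and sequence outside the 300 bases was not searched.

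Cyp2a4 varied more between livers than any other tested gene. It measured 28.2, 0.823, 0.558 and 275 CPM in saline livers 1 to 4 and 3.56, 0.800, 1.29 and 32.3 CPM in 4-HPAA livers 1 to 4. Livers 1 and 4 were the high ones in both groups, the groups overlapped, and the highest liver stood 493-fold above the lowest. The SD of log2 CPM within groups was 3.39 against a median of 0.180 over all genes, rank 1 of 12883. The log2 fold change of -3.01 ± 1.69 (SE, n = 4 per group) was the lowest of all 12883 genes, yet its 95% interval ran from -6.79 to 0.77 and the edgeR adjusted p was 1.00. Single livers decided the size of this value, which was -0.07 without saline liver 4 and -5.36 without 4-HPAA liver 4 (edgeR unadjusted p = 0.0259, adjusted p = 1.00).

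Cyp2a5 was abundant and varied less than Cyp2a4, with an SD of log2 CPM within groups of 0.256 (median over all genes 0.180). It measured 714, 1014, 1051 and 1046 CPM with saline and 1156, 1002, 781 and 896 CPM with 4-HPAA. Saline liver 1 was the lowest and 4-HPAA liver 1 the highest. The log2 fold change was 0.00 ± 0.16 (SE, n = 4 per group, interval -0.35 to 0.35, edgeR adjusted p = 1.00). Cyp2a4 made up 3.81%, 0.0804%, 0.0517% and 20.8% of the summed CPM of Cyp2a4 and Cyp2a5 in the saline livers and 0.308%, 0.0787%, 0.167% and 3.48% in the 4-HPAA livers. Since 55.9% of the 31-base words of Cyp2a4, the unit by which kallisto matches reads, also occur in Cyp2a5, some Cyp2a4 counts in the low livers may be reads of Cyp2a5, which was not tested. Added together, the pair had a log2 fold change of -0.09 ± 0.18 (SE, n = 4 per group, edgeR adjusted p = 1.00).

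Cyp2a12 (ENSMUSG00000060407, chr7:27029081-27037375, plus strand) encodes a further steroid hydroxylase of the cluster. It measured 421, 472, 547 and 540 CPM with saline and 582, 459, 449 and 502 CPM with 4-HPAA. As for Cyp2a5, the lowest was saline liver 1 and the highest 4-HPAA liver 1. Its log2 fold change was 0.01 ± 0.12 (SE, n = 4 per group, interval -0.25 to 0.27, edgeR adjusted p = 1.00). Its nearest relative Cyp2a22, 97.0% identical in coding sequence, measured 3.33, 2.16, 2.69 and 3.68 CPM with saline and 2.65, 2.00, 1.36 and 1.19 CPM with 4-HPAA. The log2 fold change of Cyp2a22 was -0.72 ± 0.27 (SE, n = 4 per group), with an edgeR adjusted p of 1.00. Cyp2a12 and Cyp2a22 share 41.5% of the 31-base words of Cyp2a12.

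**Figure D3:**
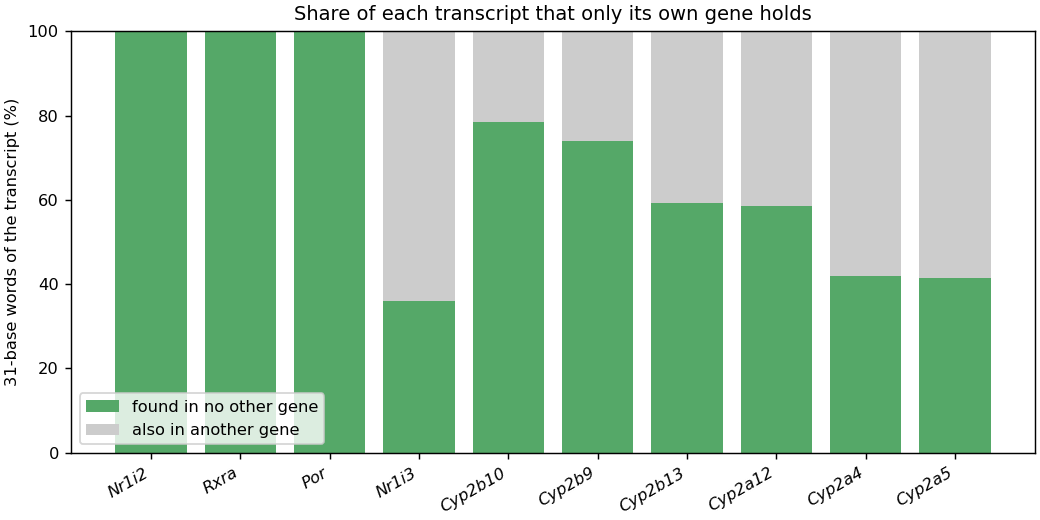
Percent of the 31-base words of each gene's main transcript (y axis) that occur, on either strand, in no other annotated gene (green) or also in another gene (grey). Nr1i2, Rxra and Por reach 100%, the Cyp2b genes lie between 59.2% and 78.4%, and Nr1i3, Cyp2a4 and Cyp2a5 lie between 35.9% and 41.9%.

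Among the Cyp2b genes, Cyp2b10, the classic CAR target, was not called and was marked mainly by a single saline liver. Cyp2b10 (ENSMUSG00000030483, chr7:25897620-25926624, plus strand) measured 33.0, 8.40, 11.0 and 11.9 CPM with saline and 13.1, 9.10, 15.3 and 8.11 CPM with 4-HPAA. Saline liver 1 stood above all the others, and the other saline livers (8.40 to 11.9 CPM) lay within the range of the 4-HPAA livers (8.11 to 15.3 CPM). The log2 fold change was -0.50 ± 0.41 (SE, n = 4 per group, interval -1.40 to 0.41, edgeR adjusted p = 1.00), and 0.13 without saline liver 1.

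Cyp2b9 (ENSMUSG00000040660, chr7:26173411-26210661, plus strand) had counts in every liver, but in 4-HPAA liver 4 only 1, under the floor of 3 counts. Its estimated counts were 210, 19, 17 and 105 with saline and 61, 10, 31 and 1 with 4-HPAA, which is 6.73, 0.652, 0.558 and 3.61 CPM and 2.13, 0.333, 1.00 and 0.035 CPM. Saline livers 1 and 4 were the highest, followed by 4-HPAA liver 1. With a filter of 10 counts over all 8 libraries, it was tested with a log2 fold change of -1.72 ± 0.92 (SE, n = 4 per group, edgeR adjusted p = 1.00). Cyp2b13 (ENSMUSG00000040583, chr7:26061497-26096197, plus strand) was not detectable at this depth. It had 1 count in saline livers 2 and 3 and in 4-HPAA liver 1 and 0 elsewhere, and 3 counts, taken as the floor, correspond to between 0.0962 and 0.105 CPM. Cyp2b9 and Cyp2b13 share most of their promoter, and RefSeq windows on GRCm38.p6 (Cyp2b9 chr7:26173159-26173408 and Cyp2b13 chr7:26061245-26061494, both plus strand) are shown because the detected and the undetected gene differ at 2 of 250 bases, in capitals.
Cyp2b9: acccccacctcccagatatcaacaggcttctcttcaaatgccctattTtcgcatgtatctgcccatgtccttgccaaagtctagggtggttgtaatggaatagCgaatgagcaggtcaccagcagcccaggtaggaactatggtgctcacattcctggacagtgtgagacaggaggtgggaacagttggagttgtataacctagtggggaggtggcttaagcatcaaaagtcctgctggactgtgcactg
Cyp2b13: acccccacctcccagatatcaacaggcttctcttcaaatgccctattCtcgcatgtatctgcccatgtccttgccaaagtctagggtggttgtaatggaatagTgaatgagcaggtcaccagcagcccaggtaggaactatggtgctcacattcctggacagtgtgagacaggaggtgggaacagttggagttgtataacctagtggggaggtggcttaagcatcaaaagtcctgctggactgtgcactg
In coding sequence Cyp2b9 and Cyp2b13 were 92.7% identical, and Cyp2b10 was 87.8% identical to Cyp2b9 and 88.7% to Cyp2b13. The sum of the 3 genes gave a log2 fold change of -0.63 ± 0.44 (SE, n = 4 per group, edgeR adjusted p = 1.00).

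Per transcript length, in TPM (length-corrected counts scaled to 1000000) computed from the annotated lengths, the order of the median levels was Cyp2a5 (824), Por (602), Cyp2a12 (457), Nr1i3 (255), Rxra (155), Nr1i2 (68.5), Cyp2b10 (9.72), Cyp2a4 (2.23), Cyp2b9 (0.726) and Cyp2b13 (0). Nr1i3, with all its forms added, stood above Nr1i2 in all 8 livers. Its 4 protein-coding forms summed to between 75.1 and 137 TPM and were above Nr1i2 (56.4 to 82.7 TPM) in 7 of 8 livers. Without Nr1i3-208 the other 3 coding forms summed to between 18.3 and 38.1 TPM and were above it in 0 of 8 livers, so the order of these receptor genes depends on which Nr1i3 forms are counted, and the overlap with Tomm40l applies here too. Cyp2a5 exceeded Por in 6 of 8 livers and their ranges overlapped, as did those of Cyp2b10 and Cyp2a4. Nr1i3 exceeded Rxra and Cyp2a4 exceeded Cyp2b9 in 8 of 8 livers although the ranges overlapped. The median of Cyp2a5 stood at percentile 99.3 among all genes and that of Cyp2b10 at percentile 68.1.

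Single transcripts showed no more than the genes. The data list 37 transcripts of the 10 genes and 24 were tested, with 0 called among them and 0 of 25533 over all transcripts (0%). At an unadjusted p below 0.05, edgeR called 0 of the 24 against 979 of all transcripts (3.83%). The groups overlapped for all 24, whereas 2.11% of all transcripts had groups that did not. Transcript Por-201 took 94.1% of its gene's counts, Cyp2a12-201 took 95.6% and Cyp2a5-201 took 99.7%.

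The 8 tested genes were then followed against each other across the 8 livers, as 28 pairs of log2 CPM values with exact permutation tests (two-sided) adjusted over the pairs. CAR and its classic target did not pass this test. Nr1i3 and Cyp2b10 had r = 0.37 and rho = 0.36 (exact permutation adjusted p = 0.546 and 0.727). Cyp2a4 fell as Rxra rose, with Pearson's r = -0.91 and Spearman's rho = -0.98 (exact permutation p = 0.000322 and 0.000397, adjusted p = 0.00903 and 0.0111). Without the 2 livers farthest from the median of Rxra (saline 4 and 4-HPAA 4) r was -0.84. Within the groups r was -0.99 with saline and -0.97 with 4-HPAA, each over 4 livers. Rxra spanned only 1.15-fold from its lowest to its highest liver. In saline livers 2 and 3 and 4-HPAA livers 1, 2 and 3, Cyp2a4 rested on 16.6 to 102 estimated counts. Some of these may be reads of Cyp2a5, which was not tested. Among all tested genes, 195 others had r above 0.9 with Rxra and 55 with Cyp2a4, so each also had close positive relations with other genes. Inverse relations as close as that of this pair were not counted over all genes. With libraries scaled by total counts only, r was -0.85 and the exact permutation adjusted p was 0.0807. With 1 liver left out in turn r stayed between -0.93 and -0.90, but the adjusted p was 0.05 or more without saline liver 2 or 3 or 4-HPAA liver 1, 2 or 3. Cyp2a5 and Cyp2a12 had r = 0.84 and rho = 0.93 (exact permutation p = 0.00799 and 0.00223, adjusted p = 0.0745 and 0.0313), and r was 0.63 without saline liver 1 and 4-HPAA liver 3. The remaining 26 pairs had adjusted p above 0.05 by both measures.

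**Figure D4:**
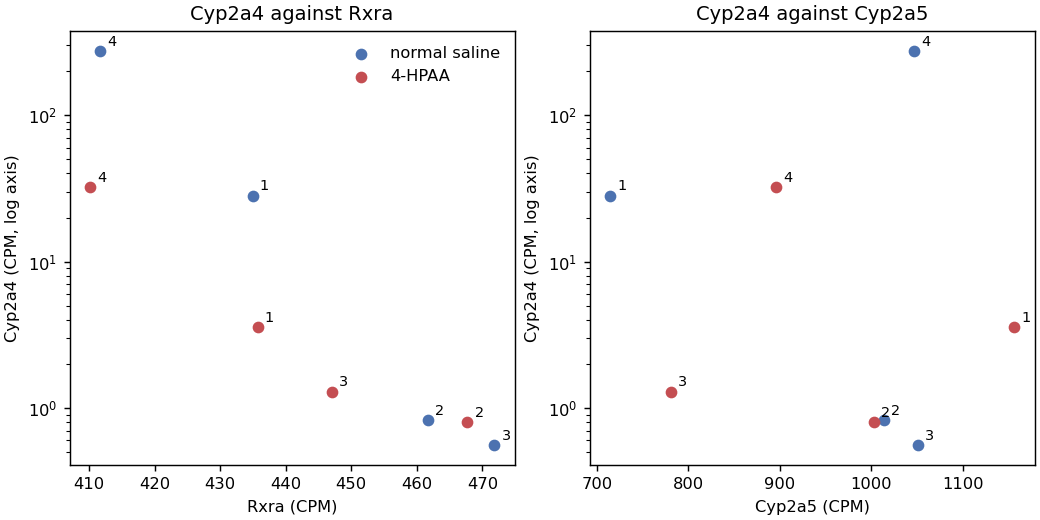
Cyp2a4 in CPM (y axis, logarithmic) against Rxra (left) and Cyp2a5 (right) in CPM (x axes), with 1 point per liver, coloured by group and numbered by replicate. Cyp2a4 falls from 275 to 0.558 CPM while Rxra rises from 412 to 472 CPM (saline livers 4 and 3), and against Cyp2a5 the points show no such order.

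Liver 4 of each group, among the livers high in Cyp2a4, differed in other ways too. Genes of pericentral hepatocytes summed to 5876 CPM in saline liver 4 and 6829 CPM in 4-HPAA liver 4, against 8569 to 9467 CPM in the other 6 livers. The 9 genes of that list include Glul, glutamine synthetase, at 415 CPM in saline liver 4 and 512 CPM in 4-HPAA liver 4. Periportal genes (7) summed to 12472 CPM in saline liver 4 and 10796 CPM in 4-HPAA liver 4, against 8737 to 10755 CPM in the others. In saline liver 4, 0 of the 7 lay below their median over the 8 livers, but 3 did in 4-HPAA liver 4, where the sum was barely above the others. Sums of Kupffer cell and leukocyte genes (8) were lowest in liver 4 of each group, at 87.9 and 79.9 CPM against 107 to 270 CPM. Endothelial sums (6 genes) were also lowest there, at 97.4 and 96.4 CPM against 128 to 164 CPM. So were stellate cell sums (6 genes), at 94.8 and 108 CPM against 127 to 191 CPM. In saline liver 4, 6 of 6 genes lay below their median over the 8 livers in each of these last 2 lists. In 4-HPAA liver 4, 5 of 6 did in each, and endothelial Lyve1 (15.5 CPM) and stellate Des (2.48 CPM) did not. No gene of these 5 lists passed an adjusted p of 0.05 between the groups or was at 0 in every library. Saline liver 1, also high in Cyp2a4, was not low in the sums of endothelial (140 CPM) and stellate cell genes (191 CPM). Its pericentral sum was 8757 CPM, although 7 of those 9 genes lay below their median over the 8 livers. Its Kupffer cell and leukocyte sum, 107 CPM, was the lowest after liver 4 of each group. The part of this difference in the levels of Cyp2a4 and Rxra was not tested.

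Saline liver 1, where Cyp2b9 and Cyp2b10 were highest, also stood out among sex-biased liver genes. Of 9 tested female-biased genes, 6 were highest in that liver, and of 11 male-biased genes 6 were lowest in it. Y-linked Ddx3y measured 79.5 CPM there, inside its range over the other livers. Cux2, a female-specific transcription factor, measured 14.1, 2.06, 2.43 and 6.15 CPM with saline and 3.04, 2.93, 2.69 and 2.03 CPM with 4-HPAA. Saline livers 1 and 4 were the high ones. Cyp2c40 did not follow that order, at 18.9, 20.6, 15.5 and 3.06 CPM with saline and 3.95, 16.3, 1.49 and 0.804 CPM with 4-HPAA. Of 16 female-biased genes listed 9 were tested, all 9 were lower with 4-HPAA (median log2 fold change -0.75) and 0 passed an adjusted p of 0.05, while of the 11 male-biased genes 8 were higher, 3 lower and 0 called (median 0.11). Their part in the Cyp2a4 and Cyp2b values was not tested.

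**Figure D5:**
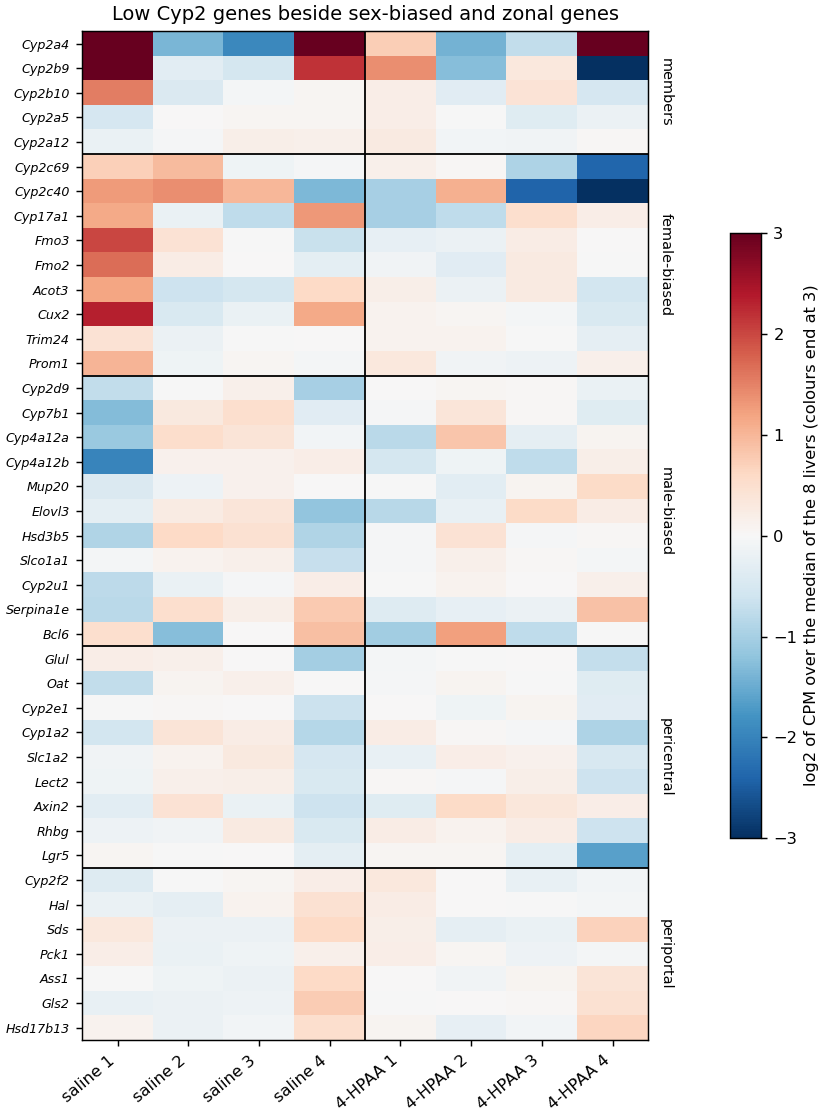
Colour gives log2 of CPM over the median of the 8 livers (from -3 to 3, values beyond are drawn at the end colours) for 5 Cyp2 genes, 9 female-biased, 11 male-biased, 9 pericentral and 7 periportal genes (rows) in each liver (columns). Cyp2a4 is red in saline livers 1 and 4 and in 4-HPAA liver 4, 6 of the 9 female-biased genes peak in saline liver 1, and 8 of the 9 pericentral genes lie below their median over the 8 livers in saline liver 4, as do 8 in 4-HPAA liver 4.

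Other genes known to respond to CAR or PXR were read as a list. Of 24 such genes 23 were tested, 14 were higher and 9 lower with 4-HPAA, and 0 passed an adjusted p of 0.05, with a median log2 fold change of 0.05. Cyp3a11, the main PXR-responsive drug oxidase, measured 2730, 3096, 3187 and 3910 CPM with saline and 4258, 3418, 3334 and 4337 CPM with 4-HPAA. Only saline liver 4 reached into the 4-HPAA range. Its log2 fold change was 0.25 ± 0.14 (SE, n = 4 per group, edgeR adjusted p = 1.00). Cyp2c55 had the highest log2 fold change of the list, 0.29 ± 0.40 (SE), and Gadd45b, a growth arrest gene, the lowest, -1.02 ± 0.37 (SE), with an edgeR adjusted p of 1.00 for both. Gadd45b measured 3.33, 1.20, 1.71 and 1.06 CPM with saline and 1.12, 0.700, 0.809 and 0.979 CPM with 4-HPAA, highest in saline liver 1. Among 7 other Cyp2a, Cyp2b and neighbouring genes 3 were tested and 0 called. Cyp2f2, a P450 of lung and liver, measured 830 to 1229 CPM with saline and 921 to 1353 CPM with 4-HPAA.

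The tested genes most like Cyp2a5 over the 8 livers, by Pearson's r of log2 CPM, were Acy3 (0.96), Cyp2f2 (0.96) and Rnf114 (0.95). Acy3, an aminoacylase, measured 28.0 CPM in saline liver 1, the lowest as for Cyp2a5, and 44.6 CPM in 4-HPAA liver 1, the highest. Those most like Cyp2b10 were Ptp4a1 (0.95, of the 2 annotated genes with this symbol, ENSMUSG00000026064), Rhob (0.94) and Ube2e1 (0.93). Ptp4a1 measured 47.2 CPM and Rhob 32.0 CPM in saline liver 1, against 9.16 to 18.8 CPM and 17.0 to 24.5 CPM in the other livers. These likenesses were picked from 12883 genes and are a description of the 8 livers.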

How the data were processed

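Liver RNA of 4 mice given normal saline and 4 given 4-HPAA was sequenced as paired-end libraries from a directional kit. The authors ran kallisto 0.46.0.4 in Galaxy with its standard parameters and deposited estimated counts, listed by transcript, with a column for every mouse and no scaling. The submitters' processing notes name GRCm38.p6 and FastQC 0.11.9. Whether strand was used is not stated separately.

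Of 119414 transcripts, 116728 were matched to 35975 genes of GENCODE M21, and counts were summed per gene and rounded. Unmatched transcripts held between 0.703% and 1.06% of the counts. A gene was tested if all 8 libraries had 10 counts or more. The test was the quasi-likelihood F test of edgeR 4.0.16 in R 4.3.3, after TMM scaling, with p adjusted over all genes by Benjamini and Hochberg and a threshold of 0.05. CPM are TMM-normalized, and log2 CPM for relations used a prior count of 2. A standard error is the fold change on the log2 scale divided by the root of F. As alternatives, limma-voom (limma 3.58.1), DESeq2 1.42.0, scaling by RLE or total counts, weaker filters, a replicate block, each library left out, single transcripts and summed paralogs were run. The fit was tested on simulated data.

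The genes and lists were chosen with earlier results of these data known. Named genes are the 10, the receptor partners, electron donors and Cyp2a and Cyp2b relatives, of other lists up to 3 genes with the largest rise and 3 with the largest fall, Y-linked genes, genes at 0 throughout, and the 3 genes most like Cyp2b10 and Cyp2a5. Tomm40l and the genes called by DESeq2 were named after values were seen. Promoters come from RefSeq (GRCm38.p6) and were found for all 10 genes.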

Additional observations from a re-analysis of the deposited data

Results flagged for a closer look

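In 98 groups of 4 livers, the highest or lowest liver was compared with the rest of its group. Cyp2b13 is counted among the 98 but was not compared. In 11 groups a liver's gap to its nearest neighbour exceeded Dixon's critical share of the group's range. Gaps were taken on values without logarithms, whereas the critical share assumes normally distributed values, which was not checked. A skewed gene such as Cyp2a4 can therefore exceed it without an unusual liver, and log2 CPM were not examined in this way. For independent groups of normally distributed values chance gives about 1 in 20 (4.9). These groups were the same 8 livers read through related genes, so the counts cannot show an excess over chance. Without 4 of the genes picked for their likeness to Cyp2a5 or Cyp2b10 over these livers (Acy3, Rnf114, Rhob and Ube2e1), 8 of 90 groups held such a liver, against 4.5 for independent groups. Cyp2b10 was highest in saline liver 1 at 33.0 CPM, against 8.40 to 11.9 CPM in the other 3. Cyp2a4 was highest in saline liver 4 at 275 CPM, against 0.558 to 28.2 CPM, and highest in 4-HPAA liver 4 at 32.3 CPM, against 0.800 to 3.56 CPM. Cyp2a5 was lowest in saline liver 1 at 714 CPM, against 1014 to 1051 CPM.

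Saline liver 1 was also apart for 3 of these 4 genes picked by likeness, which follows from how they were picked, with Acy3 lowest at 28.0 CPM (others 40.6 to 42.9), Rnf114 lowest at 48.1 CPM (53.8 to 54.6) and Rhob highest at 32.0 CPM (17.0 to 19.0). Ptp4a1, also picked by likeness, was not examined in this way and measured 47.2 CPM in saline liver 1 against 14.0 to 16.0 CPM in the other saline livers. Liver 4 of the 4-HPAA group was apart for the male-biased genes Cyp2d9, lowest at 1014 CPM (1177 to 1209), and Serpina1e, highest at 11785 CPM (4903 to 5657), and for pericentral Glul, lowest at 512 CPM (809 to 841). Cyp2e1, a pericentral P450, was lowest in saline liver 4 at 4420 CPM (6859 to 7007). The causes were not tested.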

How the results depend on the processing

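No setting called any of the genes it tested, which were 8, 9 or 10 of the 10. Single transcripts, run in the reported fit, with the replicate block and with each library left out, gave 0 calls. Over all genes, edgeR called 0, DESeq2 called 2 and, with 1 library left out in turn, between 0 and 1 were called. With all libraries kept, directions turned for Cyp2a5 and Por. Cyp2a5 was -0.0031 with total counts only and -0.093 when added to Cyp2a4, and Por was 0.0042 for its most abundant transcript. With 1 library left out, log2 fold changes ran from -0.24 to 0.061 for Nr1i3, -0.046 to 0.16 for Nr1i2, -0.052 to 0.013 for Rxra, -0.086 to 0.066 for Por, -0.11 to 0.090 for Cyp2a5, -0.069 to 0.061 for Cyp2a12, -0.71 to 0.13 for Cyp2b10 and -5.36 to -0.07 for Cyp2a4. Cyp2b10 turned from -0.50 to 0.13 without saline liver 1. With limma-voom, Cyp2a4 was -1.26 in place of -3.01 (adjusted p = 1.00 in both). Of the pairs, 1 had an adjusted p below 0.05, 2 by Spearman's rho, 2 with total counts only and 0 to 2 with 1 library left out, settings chosen after seeing the data, and the cause was not tested. The replicate block called 0 of the 8 genes tested and gave Cyp2a4 -2.18 (edgeR unadjusted p = 0.00863, adjusted p = 1.00), with 336 genes in place of 225 at an unadjusted p below 0.05. Same-numbered livers correlated at 0.04, 0.17, 0.27 and 0.48, and only livers 2 and 4 of the saline group correlated best with their own number, so the numbers were not taken to pair the mice. Genes near 3 counts, such as Cyp2b13, are beyond this depth.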
